A study of Callithrix jacchus with 54 samples.

Results

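The early course of germ cell induction with BLSE+IWR1 was followed in 8 of the 54 RNA-seq libraries of a common marmoset (Callithrix jacchus) series. They were chosen by their labels alone: 2 libraries of the starting cells, called Pre, and 2 each after 12 h, 24 h and 48 h of induction. All 8 came from the embryonic stem cell (cjESC) line TG-, a derivative of CMES40 that is wild-type by its label and carries BLIMP1-tdTomato and NANOS3-eGFP reporters but no inducible transgene. This line was maintained in PESFA medium on mouse feeder cells. Pre cells were cjESCs moved to fibronectin for 24 h with the WNT agonist IM12, activin A and a ROCK inhibitor, and were sorted for the surface antigen TRA-1-60. The induced cells were aggregates in low-binding wells with BMP4, LIF, SCF, EGF and ROCK inhibitor (BLSE) plus IWR1, a WNT inhibitor, and were collected by flow cytometry as all cells, with no marker gate. Between Pre and every later time the medium, the plate and the gate changed together, so that their parts in a difference from Pre cannot be told apart. Expression is given in TPM, a relative level of transcripts scaled by transcript length and library total. Of 14812 genes in the table, 12085 to 12581 were above 0 in each of the 8 libraries, and Pearson's r of log2(TPM + 1) between the 2 replicates of a group was 0.981 to 0.992 across genes, which are not independent replicates.

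In mammalian embryos, primordial germ cells arise from early epiblast-like cells that receive BMP signals and have been made competent by WNT. BMP ligands act through receptor serine kinases and SMAD proteins to switch on a small set of direct targets, among them the ID genes, MSX genes and feedback inhibitors. The same BMP signal also leads primate pluripotent cells towards amnion and extra-embryonic mesoderm, whereas WNT and NODAL signals lead them towards primitive streak derivatives. IWR1 stabilizes AXIN, a scaffold of the complex that degrades beta-catenin.

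The 4 marker genes given for this course were measured first. HAND1 (gene 100399939), a basic helix-loop-helix factor of amnion and lateral mesoderm, stood at 48.1 and 34.9 TPM in the 2 Pre libraries, 305 and 221 at 12 h, 695 and 513 at 24 h and 1176 and 1186 at 48 h. No library of one time overlapped those of another, and both 48 h libraries were the highest of the 8. The log2 difference from Pre grew from 2.63 ± 0.32 (SE; adjusted p = 8.95e-08) at 12 h to 4.82 ± 0.32 (adjusted p = 1.94e-14) at 48 h. In aggregates collected with no marker gate, more cells of a kind and more RNA per cell cannot be told apart. POU3F2 (gene 100387234), a POU-domain factor known from neural cells, was near the lowest values of the table in Pre, at 0.17 and 0 TPM. It measured 0.96 and 1.32 TPM at 12 h, 5.44 and 3.66 at 24 h and 10.4 and 12.8 at 48 h, again without overlap between times. Its 48 h log2 difference was 3.54 ± 0.23 (adjusted p = 1.94e-14), while the 12 h difference of 0.98 ± 0.23 (adjusted p = 0.00321) no longer passed without Pre replicate 2 (0.87, adjusted p = 0.0801) or 12 h replicate 2 (0.86, adjusted p = 0.0691).

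ID1 (gene 100412122), an inhibitor of basic helix-loop-helix factors and a direct SMAD target, behaved as a step. Its level was 168 and 111 TPM in Pre, 1043 and 1009 at 12 h, 1052 and 907 at 24 h and 1189.8 and 926 at 48 h. All induced libraries lay above both Pre libraries, and the 3 induced times overlapped one another. The log2 difference from Pre was 2.90 ± 0.18 at 12 h (adjusted p = 1.34e-14) and 2.93 ± 0.18 at 48 h (adjusted p = 4.37e-15). VIM (gene 100408168), the intermediate filament protein of mesenchymal cells, was lower at each induced time: 504 and 729 TPM in Pre, 262 and 239 at 12 h, 145 and 171 at 24 h and 299 and 315 at 48 h. The 24 h libraries were the lowest and the 48 h libraries lay between those of 12 h and Pre, without overlap. The log2 difference from Pre was -1.94 ± 0.19 at 24 h (adjusted p = 5.31e-10) and -0.98 ± 0.19 at 48 h (adjusted p = 1.10e-04), and the latter did not pass without Pre replicate 2 (-0.71, adjusted p = 0.0198). The rise from 24 h to 48 h was 0.96 ± 0.19 (adjusted p = 0.00144), and its adjusted p ranged from 0.0113 to 0.0418 when any 1 of the 4 libraries was left out. All 10 core pluripotency genes were above 0 in every library of the course, and the transcripts of both reporter genes were detected in all 8, PRDM1 (the gene of BLIMP1) between 8.74 and 24.5 TPM and NANOS3 between 1.53 and 15.8 TPM.

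**Figure D1:**
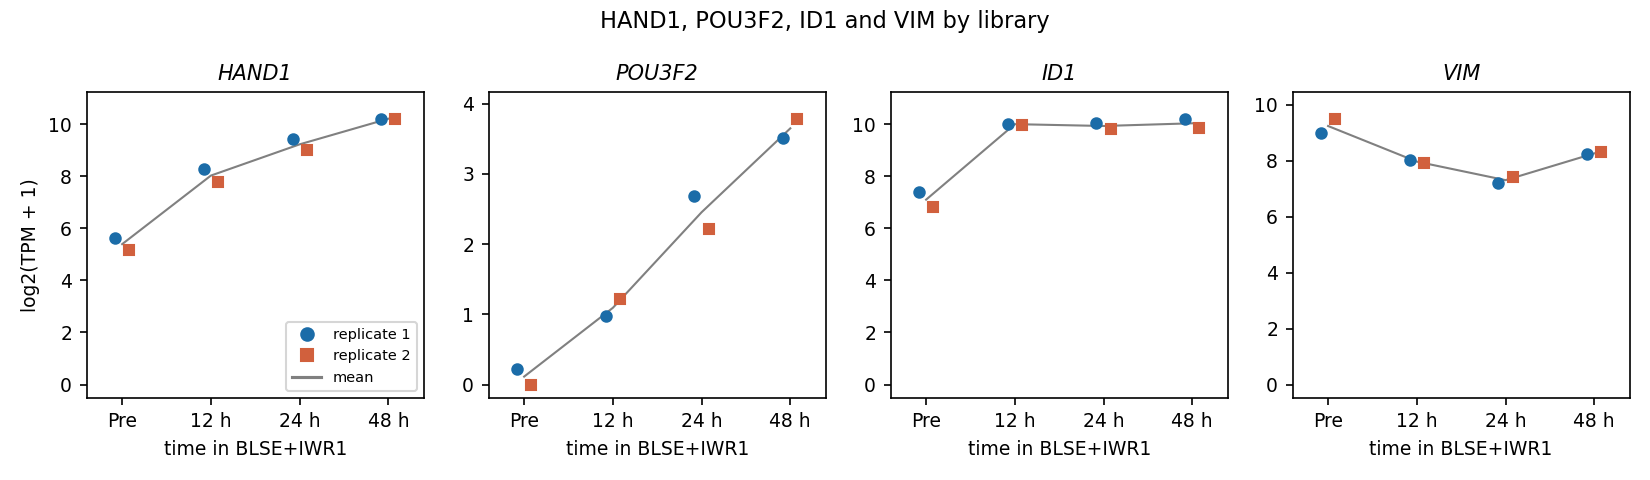
HAND1, POU3F2, ID1 and VIM by library, as log2(TPM + 1) against time in BLSE+IWR1, with circles for replicate 1, squares for replicate 2 and a line through the means of 2 libraries. HAND1 and POU3F2 climbed at each time, ID1 was raised by 12 h and then level, and VIM was lowest at 24 h.

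Along their main axis of variation the libraries followed the time of induction. The first principal component of the 8 libraries took 50.2% of the variance and ran from -53.9 and -41.8 in Pre to 33.0 and 33.7 at 48 h, with 12 h and 24 h between in that order. The second, with 16.4%, set 48 h replicate 2 (at 34.0) apart from replicate 1 (at 1.5). Of 11197 genes tested, 1987 (17.7%) differed between any of the 4 times (limma F test, adjusted p under 0.01). The count was 1184 without Pre replicate 2 and 251 in a fit of only the libraries compared. Genes with more than 4-fold difference, adjusted p under 0.01 and mean log2(TPM + 1) above 1.5 are called DEGs below. At 12 h there were 17 higher (0.152% of genes tested) and 117 lower (1.04%) than in Pre. At 24 h there were 40 (0.357%) and 134 (1.2%), and at 48 h 112 (1%) and 166 (1.48%). The 12 h total of 134 DEGs was 74 without Pre replicate 2. These calls take their error from all 54 libraries: with the 8 libraries of the course alone, a fit chosen after the data had been seen, the totals were 46, 102 and 237, and in limma fits of only the 4 libraries compared no gene passed at any time, although 2120, 2953 and 2583 genes had an unadjusted p under 0.05. An exact permutation test of 2 libraries against 2 cannot give a p below 0.33 for any single gene.

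Altogether 321 genes were DEGs at some time, 17 of them higher and 85 lower at all 3 times, 75 higher and 60 lower at 48 h only. The 3 comparisons share the Pre libraries. No gene was a DEG above Pre at 12 h or 24 h and then a DEG below that time at 48 h. The reverse was seen for 3 genes, ANGPT1, a ligand of the TEK receptor, HAS2, a hyaluronan synthase, and PDK4, a kinase that inhibits pyruvate dehydrogenase. PDK4 measured 5.23 and 11.5 TPM in Pre, 1.45 and 0.60 at 12 h, 1.78 and 1.26 at 24 h and 8.90 and 10.4 at 48 h. Its 48 h libraries lay between the 2 Pre values, and those of 12 h and 24 h below both. In what follows, a gene of a list is said to have risen or fallen where its own adjusted p over all genes was under 0.01. By that measure 1.97% of all genes rose and 4.81% fell at 12 h, 4.14% rose and 5.32% fell at 24 h, and 9.98% rose and 9.27% fell at 48 h. The median log2 difference of all genes was 0.02, 0.07 and 0.04 at these times.

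Of the lists examined, BMP targets had the most members raised at 12 h and at 48 h. Of 14 tested, 10 rose and 1 fell at 12 h, 11 rose and 1 fell at 24 h, and 13 rose and none fell at 48 h. Their median log2 difference from Pre was 1.58, 2.15 and 2.72. Without any 1 library, 9 to 10 rose at 12 h and 12 to 13 at 48 h. ID3 went from 118 and 209 TPM in Pre to 812 and 770.1 at 12 h and 1131 and 1003 at 48 h. ID4 went from 3.17 and 3.82 TPM in Pre to 57.7 and 57.3 at 12 h and 58.9 and 62.0 at 48 h. Like ID1, both ID genes were far above Pre at 12 h, with log2 differences of 2.33 ± 0.17 and 3.71 ± 0.22. MSX2, a homeobox factor, had the largest 12 h rise of the named DEGs, from 13.1 and 8.39 TPM in Pre to 253 and 167 at 12 h, 227 and 209 at 24 h and 257 and 280.1 at 48 h. All 6 induced libraries were above 160 TPM and neither Pre library exceeded 14 TPM. The 12 h log2 difference was 4.17 ± 0.22 (adjusted p = 4.11e-16).

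The target list also holds inhibitors of the pathway, of which SMAD6, SMAD7, BAMBI and NOG were higher at 48 h. SMAD6, an inhibitory SMAD, went from 28.0 and 29.6 TPM in Pre to 104 and 96.8 at 48 h (log2 difference 1.76 ± 0.21), and SMAD7, the other inhibitory SMAD, from 26.9 and 38.1 to 75.0 and 80.1 (1.25 ± 0.17). BAMBI, a decoy receptor, measured 77.7 and 65.6 TPM in Pre, 485 and 439.9 at 12 h and 684 and 647 at 48 h. All induced libraries quoted for these genes were above both Pre libraries. NOG, a secreted BMP antagonist, did not pass at 12 h (log2 difference 0.68 ± 0.36, adjusted p = 0.255) and rose by 48 h (2.30 ± 0.36, adjusted p = 5.49e-06).

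DLX5, a homeobox factor, had the largest rise of the list at 48 h. It measured 0.27 and 1.15 TPM in Pre, 3.50 and 3.89 at 12 h, 10.7 and 9.10 at 24 h and 77.9 and 65.2 at 48 h. The groups did not overlap, and the step from 24 h to 48 h alone was 2.73 ± 0.31 (adjusted p = 4.78e-07). BMPER, which encodes a secreted BMP-binding protein, was the only member that fell. Its level was 6.00 and 14.3 TPM in Pre, 1.36 and 1.1 at 12 h, 1.32 and 0.90 at 24 h and 3.63 and 3.65 at 48 h, and it did not pass at 48 h (adjusted p = 0.0201). The 12 h fall of -2.22 did not pass without Pre replicate 2 (-1.65, adjusted p = 0.0213).

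**Figure D2:**
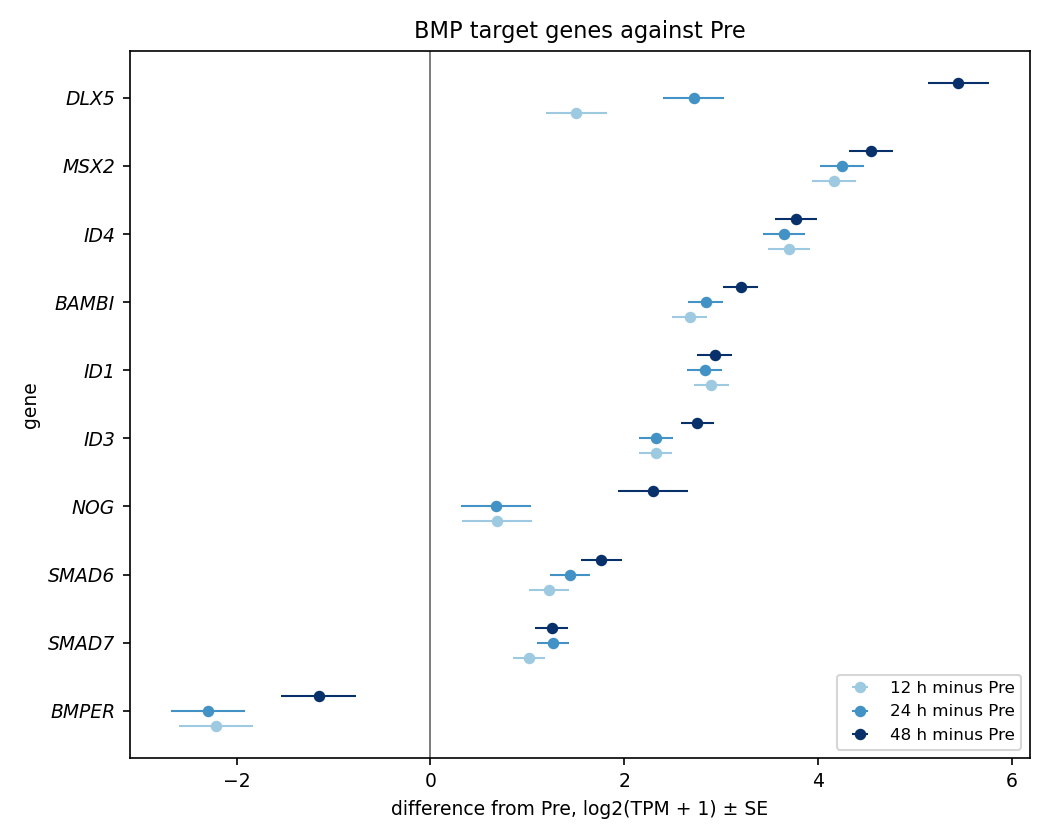
Differences from Pre of 10 BMP target genes named in the text, on log2(TPM + 1), with a point for each of 12 h, 24 h and 48 h (2 libraries against 2) and bars for the SE. ID1, ID3, ID4, MSX2 and BAMBI were raised by 12 h, DLX5 climbed at every time, and BMPER alone lies below 0.

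Ligands, receptors and extracellular regulators of the BMP pathway moved in both directions. Of 13 tested, 3 rose and 4 fell at 48 h, and 1 to 2 fell when any 1 of the 4 libraries was left out. FST, follistatin, an antagonist of activin and BMPs, went from 86.2 and 69.8 TPM in Pre to 39.8 and 21.3 at 12 h and 36.1 and 32.8 at 48 h (48 h log2 difference -1.15 ± 0.32, adjusted p = 0.00551), and the 48 h fall did not pass when any 1 library was left out (adjusted p from 0.0171 to 0.0619). BMP4, the ligand that was also in the medium, went from 59.0 and 67.6 TPM in Pre to 142 and 189 at 48 h (log2 difference 1.36 ± 0.19, adjusted p = 5.54e-07). CHRD, a BMP antagonist, rose from 2.20 and 2.15 to 11.9 and 21.7 TPM (2.43 ± 0.32). BMPR1A and BMPR2, receptors of types I and II, differed from Pre at 48 h by 0.25 ± 0.19 and 0.04 ± 0.24, neither past the test.

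Genes of amnion rose with time. Of 13 tested, 6 rose at 12 h, 7 rose and 1 fell at 24 h, and 11 rose and 1 fell at 48 h, where the median log2 difference was 2.58. Without Pre replicate 2, 9 rose at 48 h, and without 12 h replicate 1, 4 rose at 12 h. No gene of the list fell at 24 h without 24 h replicate 1 or Pre replicate 1, or at 48 h without Pre replicate 1. GATA3, a zinc finger factor, measured 8.87 and 6.93 TPM in Pre, 63.9 and 61.2 at 12 h, 92.2 and 73.0 at 24 h and 166 and 160.4 at 48 h. All induced libraries were above Pre and the 48 h libraries were the highest (48 h log2 difference 4.22 ± 0.28, adjusted p = 2.30e-14). TFAP2A, a factor of amnion and surface ectoderm, went from 2.98 and 3.23 TPM in Pre to 19.4 and 16.6 at 24 h and 39.0 and 37.8 at 48 h. ISL1, a LIM-homeodomain factor, was at 0.26 and 0.44 TPM in Pre, 2.44 and 2.57 at 12 h, 6.68 and 5.11 at 24 h and 14.4 and 17.6 at 48 h, so that no time overlapped another. VTCN1, a cell surface protein of the B7 family, was low until 24 h (0.40 and 1.13 TPM) and stood at 16.5 and 14.0 TPM at 48 h. Its step from 24 h to 48 h was 3.23 ± 0.35 (adjusted p = 1.28e-07). CDX2, a caudal-type homeobox factor, measured 0.07 and 0.06 TPM in Pre, 3.32 and 0.15 at 12 h, 0.86 and 2.23 at 24 h and 6.98 and 4.09 at 48 h. GABRP, another gene of the list, did not pass at any of the 3 times (48 h log2 difference 0.47 ± 0.35).

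The lateral mesoderm list, which also holds HAND1, had 6 risen and 2 fallen of 10 tested at 48 h, with a median of 1.97. TBX20, a T-box factor of heart and extra-embryonic mesoderm, went from 1.55 and 2.04 TPM in Pre to 4.08 and 5.67 at 24 h and 22.6 and 35.9 at 48 h (3.41 ± 0.38). FOXF1, a forkhead factor, went from 1.12 and 1.36 to 14.0 and 7.59 TPM, and GATA6, a factor shared by mesoderm and endoderm, from 17.6 and 15.1 to 57.3 and 74.5 TPM. ETV2, a factor of blood and vessel precursors, reached 8.32 and 7.47 TPM from 0.63 and 0.79 TPM in Pre. In all 4, both 48 h libraries were above both Pre libraries. HAND2 fell from 2.59 and 4.37 TPM in Pre to 1.43 and 0.66 at 48 h, and PDGFRA, a receptor of mesenchymal cells, from 25.5 and 44.9 to 5.59 and 14.2 TPM. Without Pre replicate 2 neither fall passed (HAND2 -0.84, adjusted p = 0.0966; PDGFRA -1.41, adjusted p = 0.036), nor did that of HAND2 without 48 h replicate 2 (adjusted p = 0.0693) or that of PDGFRA without 48 h replicate 1 (adjusted p = 0.0491).

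Most core pluripotency genes passed the test only at 48 h, when they fell. POU5F1 instead rose, and PRDM14 fell from 12 h on. Of 10 core genes tested, 1 rose and 1 fell at 12 h and at 24 h, and 1 rose and 8 fell at 48 h, with a median log2 difference of -1.03. Without 48 h replicate 1, 5 fell at 48 h, and no core gene rose at 12 h or 24 h without Pre replicate 2, or at 12 h without either 12 h library. POU5F1, the POU factor of the pluripotency network, measured 4109 and 3694 TPM in Pre, 5275 and 5224 at 12 h, 5439.6 and 5481 at 24 h and 5033 and 5779 at 48 h. Every induced library was above both Pre libraries. The 48 h log2 difference of 0.47 ± 0.10 (adjusted p = 2.73e-04) did not pass without Pre replicate 2 (0.39, adjusted p = 0.0167) or 48 h replicate 2 (0.37, adjusted p = 0.0151).

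NANOG, a homeobox factor, measured 769 and 721 TPM in Pre, 595 and 694 at 12 h, 522 and 646 at 24 h and 242 and 286 at 48 h. The 48 h libraries were below the other 6 (log2 difference -1.5 ± 0.17, adjusted p = 1.39e-08). SOX2, its partner in the network, measured 216 and 209 TPM in Pre, 134 and 218 at 12 h, 159.8 and 187 at 24 h and 41.4 and 68.4 at 48 h, where it was also below all earlier libraries (-1.98 ± 0.28). PRDM14, a repressor of differentiation in pluripotent and germ cells, was the member of the list that had fallen at 12 h and the one that fell furthest. It went from 347 and 323 TPM in Pre to 93.8 and 97.7 at 12 h, 63.7 and 99.7 at 24 h and 7.53 and 17.0 at 48 h. The log2 difference was -1.79 ± 0.24 at 12 h (adjusted p = 7.50e-07) and -4.76 ± 0.24 at 48 h (adjusted p = 3.81e-17). TDGF1, the NODAL co-receptor, was at 857 and 841 TPM in Pre and 344 and 434 at 48 h (-1.13 ± 0.17), and DPPA4, a chromatin protein, at 483 and 436 TPM in Pre and 176 and 236 at 48 h (-1.17 ± 0.13).

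Genes associated with naive pluripotency were lower at 48 h than in Pre, with 8 of 10 tested fallen, 1 risen and a median of -1.18. Without Pre replicate 1, 4 fell, and without 48 h replicate 1, 5. From 24 h to 48 h alone, 3 of the 10 fell. By the same measure, 103 of all 11197 genes tested fell in this step and 100 rose. KHDC3L, an oocyte and early embryo protein, went from 1384 and 1009 TPM in Pre to 793 and 747 at 24 h and 256 and 224 at 48 h (-2.30 ± 0.25), without overlap. SUSD2, a surface protein of naive cells, went from 85.7 and 58.6 to 9.89 and 9.44 TPM (-2.75 ± 0.25). The gene that rose was TBX3, which is also a gene of amnion, from 16.2 and 18.1 TPM in Pre to 142 and 191 at 48 h (3.19 ± 0.29). Of 11 genes of the primed state, 2 rose and 4 fell at 48 h, and without 48 h replicate 1, 2 fell. Without 48 h replicate 2 or Pre replicate 2, 1 primed gene rose. SFRP1, a secreted WNT antagonist, fell from 275 and 379 to 41.4 and 64.4 TPM (-2.62 ± 0.27), and CD24, a surface glycoprotein, rose from 144 and 121 to 567 and 498 TPM (2 ± 0.16). ZIC2, a zinc finger factor, was at 32.6 and 56.0 TPM in the 48 h libraries and 161 and 186 in Pre, and did not pass (adjusted p = 0.0113).

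Germ cell genes split between the directions. Of 11 tested, 3 rose and 5 fell at 48 h, and only 1 rose without 48 h replicate 1 or without Pre replicate 2. NANOS3, an RNA-binding protein of germ cells, measured 1.53 and 2.58 TPM in Pre, 6.11 and 5.18 at 12 h, 9.10 and 7.85 at 24 h and 15.8 and 10.2 at 48 h. The times did not overlap, and the 48 h log2 difference was 2.19 ± 0.29 (adjusted p = 3.27e-07). SOX17, a specifier of primate germ cells that also marks endoderm, measured 12.1 and 3.38 TPM in Pre, 4.97 and 5.08 at 12 h, 9.14 and 6.06 at 24 h and 25.3 and 15.9 at 48 h. Both 48 h libraries were above all others, and the Pre libraries lay on either side of those of 12 h and 24 h. Its 48 h difference of 1.48 ± 0.29 (adjusted p = 1.25e-04) was 0.69 without Pre replicate 2 (adjusted p = 0.0717) and 1.16 without 48 h replicate 1 (adjusted p = 0.011).

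PRDM1, which encodes the repressor BLIMP1, was at 24.5 and 21.2 TPM in Pre and at 8.74 and 13.3 TPM at 48 h (-1.01 ± 0.21), a fall that did not pass without 48 h replicate 1 (-0.73, adjusted p = 0.025). TFAP2C, another factor of germ cell specification, was at 111 and 97.5 TPM in Pre and 137 and 150 at 48 h, and its difference of 0.46 ± 0.18 did not pass (adjusted p = 0.0561). KLF4 fell from 125 and 123 to 9.41 and 14.5 TPM (-3.30 ± 0.20), UTF1, a chromatin factor, from 308 and 264 to 66.7 and 55.8 TPM (-2.21 ± 0.19), and SOX15 from 35.2 and 24.1 to 5.82 and 6.77 TPM (-2.05 ± 0.26). In these 3 the 48 h libraries were below both Pre libraries, as in PDPN, a surface glycoprotein used to isolate germ cells, at 652 and 584 TPM in Pre and 243 and 351 at 48 h (-1.08 ± 0.13). KIT, the receptor of SCF, was at or below 0.32 TPM in all 8 libraries.

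**Figure D3:**
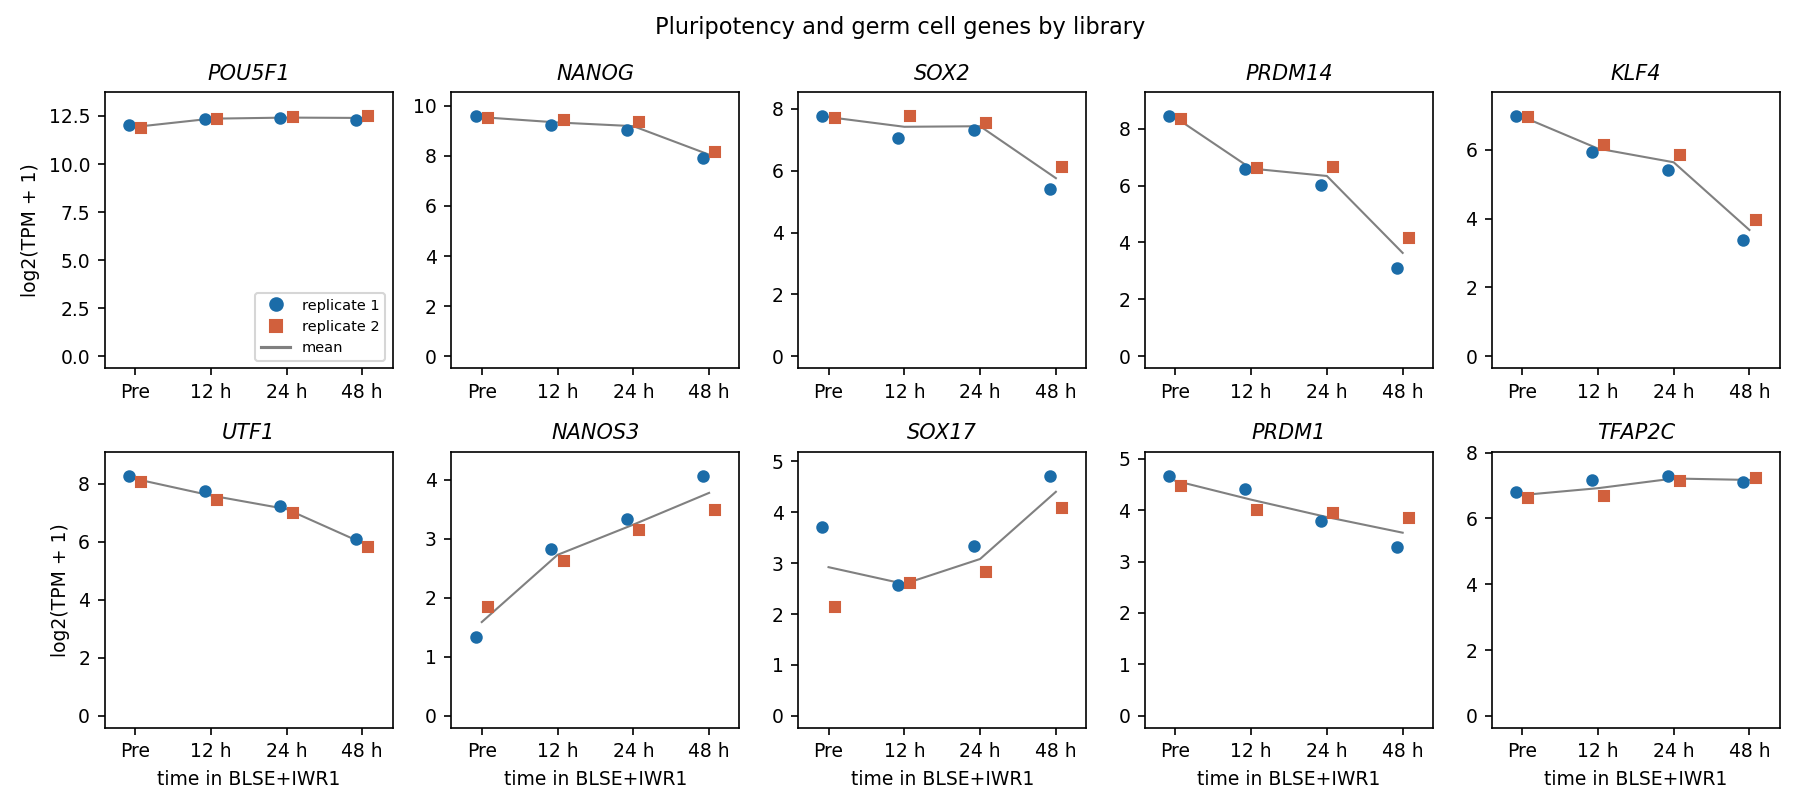
Pluripotency and germ cell genes by library, as log2(TPM + 1) against time in BLSE+IWR1, with circles for replicate 1, squares for replicate 2 and a line through the means. NANOG, SOX2 and UTF1 were lowest at 48 h, PRDM14 was already lower at 12 h, POU5F1 was not, and NANOS3 climbed throughout.

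In the presence of the WNT inhibitor, the WNT genes moved in both directions. AXIN2, a common readout of WNT activity, was at 8.40 and 6.88 TPM in Pre, 10.1 and 6.42 at 12 h, 5.33 and 6.13 at 24 h and 5.32 and 8.15 at 48 h. The groups overlapped and no difference from Pre passed (at 48 h -0.18 ± 0.30, adjusted p = 0.707). Of 16 targets and feedback genes, 6 rose and 4 fell at 48 h, with a median of 1.03, and without Pre replicate 2, 3 rose. NOTUM, a secreted enzyme that inactivates WNT ligands, rose from 9.55 and 8.59 TPM in Pre to 52.6 and 68.0 at 48 h (2.60 ± 0.24), and RNF43, a ligase that removes WNT receptors, from 5.38 and 2.05 to 12.4 and 14.4 TPM (1.70 ± 0.27). APCDD1, an inhibitor of WNT receptors, fell from 72.8 and 63.3 to 30.8 and 33.2 TPM (-1.06 ± 0.18), and SP8, a zinc finger factor, from 56.7 and 39.2 to 8.31 and 9.90 TPM (-2.26 ± 0.39).

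Of 11 WNT ligands and receptors, 5 rose and 3 fell at 48 h, and without Pre replicate 2, 3 rose. The ligand gene WNT8A (gene 100402422) showed the largest rise of the named DEGs at 24 h and at 48 h. It was at 1.67 and 1.01 TPM in Pre, 33.2 and 27.8 at 12 h, 92.8 and 77.2 at 24 h and 263 and 298 at 48 h. The 4 groups stood apart, with a log2 difference from Pre of 3.76 ± 0.41 at 12 h and 6.92 ± 0.41 at 48 h (adjusted p = 9.91e-16). WNT3, another ligand, went from 17.8 and 11.4 to 51.5 and 73.7 TPM (2.04 ± 0.30), and the receptor FZD10 from 6.74 and 3.75 TPM in Pre to 80.0 and 23.8 at 12 h and 84.0 and 88.0 at 48 h (3.84 ± 0.34). FZD7, a receptor abundant in pluripotent cells, fell from 121 and 162 to 27.7 and 32.4 TPM (-2.19 ± 0.37), and RSPO3, an R-spondin, from 12.2 and 28.7 to 4.14 and 2.46 TPM (-2.23 ± 0.37).

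The primitive streak genes that rose did so mainly by 48 h. Of 13 tested, 1 rose at 12 h and at 24 h, and 6 rose and 1 fell at 48 h, with a median of 1.20. Without Pre replicate 2, 3 rose. The one that fell was FGF17, a ligand, from 12.1 and 7.64 to 2.12 and 1.18 TPM, and it did not pass when any 1 of the 4 libraries was left out (adjusted p from 0.0164 to 0.0796). EVX1, a homeobox factor of the posterior streak, was the one raised early, from 2.20 and 2.23 TPM in Pre to 37.9 and 11.6 at 12 h and 50.8 and 68.0 at 48 h (4.22 ± 0.32, adjusted p = 8.40e-13). TBXT, the streak and notochord factor Brachyury, was at 63.8 and 48.8 TPM in Pre, 216 and 71.6 at 12 h, 152 and 123 at 24 h and 149 and 219.9 at 48 h. All induced libraries were above Pre, and the 48 h difference of 1.68 ± 0.36 (adjusted p = 3.81e-04) did not pass without Pre replicate 2 (1.49, adjusted p = 0.0143) or 48 h replicate 2 (1.40, adjusted p = 0.0149). APLNR, the apelin receptor of early mesoderm, went from 6.38 and 4.95 TPM in Pre to 3.15 and 3.36 at 24 h and 26.7 and 18.6 at 48 h (1.82 ± 0.34). MIXL1, a homeobox factor of mesendoderm, was at 18.0 and 17.9 TPM in Pre and 68.3 and 78.8 at 48 h, and did not pass (1.97 ± 0.67, adjusted p = 0.0241).

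Of 9 genes of the NODAL axis, 2 rose and 4 fell at 48 h. NODAL was at 177 and 135 TPM in Pre and 313 and 307 TPM at 48 h, and its difference of 1 ± 0.40 did not pass (adjusted p = 0.0585). INHBA, which encodes the activin A subunit, fell from 35.7 and 107 TPM in Pre to 8.51 and 3.34 at 12 h, 2.35 and 2.39 at 24 h and 1.06 and 0.06 at 48 h (48 h log2 difference -5.41 ± 0.57). GDF3, a ligand related to NODAL, fell from 808 and 722 to 322 and 307 TPM (-1.28 ± 0.14), with both 48 h libraries below both Pre libraries.

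Transcripts of fibroblasts were among the largest falls. Of 11 marker genes, 9 fell at 12 h and at 24 h and 10 at 48 h, none rose, and the median log2 difference was -3.93, -4.53 and -4.82. Their summed level was 3160.2 and 6530.2 TPM in the 2 Pre libraries, 263 and 172 at 12 h, 125 and 149 at 24 h and 125 and 134 at 48 h. In Pre most of it was collagen. COL1A1, the most abundant there, went from 1385 and 2715 TPM to 119 and 73.6 at 12 h and 35.6 and 49.9 at 48 h. COL3A1 went from 459 and 835 TPM in Pre to 7.21 and 5.71 at 12 h and 2.43 and 1.68 at 48 h (48 h log2 difference -7.68 ± 0.50, adjusted p = 1.87e-14). The Pre libraries thus differed from each other in this sum, and both were far above the induced libraries. In cjESCs of the same line before the pre-treatment the sum was 4718 and 3991 TPM. Pre and these cjESCs had passed the TRA-1-60 gate, which the study used in its staining experiments to part cjESCs from mouse feeder cells, and reads were aligned to the marmoset genome. Which cells the transcripts came from was not tested. Among induced times alone, 48 h over 12 h, 1 of the 11 fell and none rose.

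**Figure D4:**
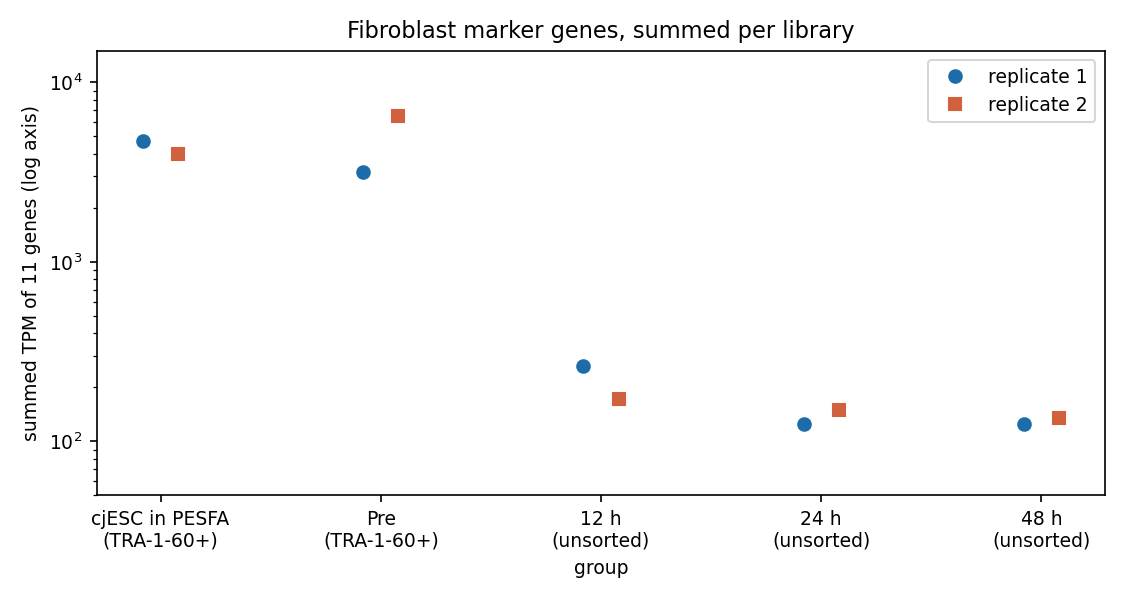
Summed TPM of 11 fibroblast marker genes by library on a log axis, with circles for replicate 1 and squares for replicate 2. Both libraries of cjESC in PESFA and both of Pre sit between 3160.2 and 6530.2, and the 6 induced libraries sit between 125 and 263.

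Other genes of matrix and mesenchyme fell beside the fibroblast markers, and the part of fibroblasts in their falls was not tested. Of 15 basement membrane and matrix genes, 7 fell at 12 h and at 24 h and 9 at 48 h, when 1 rose. Without 12 h replicate 2, 1 fell at 12 h, and without Pre replicates 1 and 2 in turn, 4 and 2. At 24 h 1 fell without 24 h replicate 1 or Pre replicate 2 and 3 without Pre replicate 1, and at 48 h 3 fell without 48 h replicate 1. The rise at 48 h was lost without 48 h replicate 2 or either Pre library. COL4A2, a type IV collagen chain, was at 259 and 269 TPM in Pre and 99.9 and 145 at 48 h (-1.12 ± 0.21), and NID1, a basement membrane linker, at 42.5 and 61.8 TPM in Pre and 15.5 and 30.1 at 48 h (-1.20 ± 0.20). Of 8 mesenchymal genes, VIM among them, 5 fell at 12 h and at 24 h and 4 at 48 h. TWIST1, a factor of mesenchyme, was at 16.3 and 28.8 TPM in Pre and 1.17 and 3.83 at 48 h (-2.81 ± 0.32), and CDH2, N-cadherin, at 14.2 and 18.0 TPM in Pre and 4.45 and 4.87 at 48 h (-1.59 ± 0.19). SNAI1, a factor of epithelial-mesenchymal transition, was at 19.7 and 22.4 TPM in Pre and 28.0 and 25.0 at 48 h and did not pass (0.32 ± 0.20). Of 9 epithelial genes, 2 rose and none fell at 48 h, and 1 rose without 48 h replicate 2 or either Pre library; CDH1, E-cadherin, was at 188 and 162 TPM in Pre and 198 and 263 at 48 h (0.38 ± 0.19, adjusted p = 0.122).

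By size alone, the 10 largest rises at 12 h were in MSX2, WNT8A, ID4, SP6, CCL7, ID1, FZD10, GATA3, EVX1 and BAMBI. SP6, a zinc finger factor of ectoderm, went from 5.06 and 4.10 TPM in Pre to 78.5 and 42.4 at 12 h, and CCL7, a chemokine, from 1.11 and 0.93 to 17.7 and 15.0 and, at 48 h, 41.3 and 41.8 TPM. The 10 largest falls were in COL3A1, S100A6, BGN, ASPN, AGTR2, IGFBP7, RPL10L, COL1A2, COL1A1 and FBN1, 5 of which are in the fibroblast list. BGN and ASPN are matrix proteoglycans. AGTR2, an angiotensin receptor, was at 17.9 and 52.5 TPM in Pre and listed at 0 in all 6 induced libraries. RPL10L is a near-identical copy of another ribosomal protein gene, so its value is uncertain. At 24 h HAND1 and SPON2, a secreted matrix protein, joined the 10 largest rises, and IGFBP3 the falls. At 48 h the additions included DLX5, SHD, an adaptor protein, and NGFR, the neurotrophin receptor p75, among the rises and INHBA among the falls. NGFR measured 1.22 and 1.13 TPM in Pre, 2.12 and 2.21 at 12 h, 9.42 and 7.16 at 24 h and 61.2 and 69.9 at 48 h.

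Steps within the induced libraries gave fewer DEGs than the differences from Pre. From 12 h to 24 h 1 gene was a DEG, higher (0.00893%), and none lower (0%), although 896 genes had an unadjusted p under 0.05. It was ENPP2, the enzyme autotaxin, at 7.74 and 7.69 TPM at 12 h and 36.0 and 38.0 at 24 h (2.12 ± 0.30, adjusted p = 2.23e-04), and it did not pass without 24 h replicate 1 (2.16, adjusted p = 0.013). From 24 h to 48 h 18 genes were higher (0.161%) and 5 lower (0.0447%). With a pseudocount of 0.1, 11 were higher, and 3 were lower without 48 h replicate 1 or 24 h replicate 2. In the fit of the 8 libraries of the course, 1 gene was higher and 0 lower from 24 h to 48 h. With only the libraries compared there were 0 DEGs, with 1075 genes at an unadjusted p under 0.05 (limma). From 12 h to 24 h both of these fits gave 0 DEGs. The 5 largest rises were CXCL14, VTCN1, KRT72, NGFR and DLX5. CXCL14, a chemokine of epithelia, went from 3.93 and 3.88 TPM to 72.2 and 57.0 (3.73 ± 0.40, adjusted p = 1.28e-07), without overlap. The 5 that fell were PRDM14, FOXD3, NR5A2, HES3 and EPGN, of which HES3 did not pass when any 1 of the 4 libraries was left out (adjusted p from 0.0152 to 0.14), and EPGN passed only without 24 h replicate 1 (otherwise adjusted p from 0.0113 to 0.207). FOXD3, a forkhead factor of pluripotent cells, went from 18.7 and 19.9 to 2.23 and 2.27 TPM, and NR5A2, a nuclear receptor of early embryos, from 10.1 and 13.8 to 1.33 and 1.82 TPM.

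The 48 h libraries were also set against 12 h, a comparison chosen after the data had been seen, in which all 4 libraries were aggregates with no marker gate and Pre was not used. Here 44 genes were higher (0.393%) and 16 lower (0.143%), and by adjusted p alone 4.02% of genes rose and 2.38% fell. Amnion genes rose, 7 of 13 with none fallen (median 1.37, beside 0.03 for all genes), as did 4 of 10 lateral mesoderm genes and 4 of 14 BMP targets. Core pluripotency genes fell, 7 of 10 with none risen (median -0.96). PRDM14 fell by 2.96 on the log2 scale and NANOG by 1.28 (adjusted p = 1.78e-06), while HAND1 rose by 2.18 (adjusted p = 6.91e-06). Of 13 primitive streak genes 3 rose and none fell.

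Lists of signalling, cell cycle and metabolism were also counted. In the cell cycle list, 4 of 18 rose at 12 h and 5 at 24 h, with none fallen, and 3 rose and 1 fell at 48 h. Without Pre replicate 2, 1 rose at 12 h and 3 at 24 h, and 2 and 3 rose without the second replicate of 12 h and of 24 h. The fall at 48 h was lost without 48 h replicate 1 or Pre replicate 2. The risen ones at 48 h were the replication helicase subunits MCM3, MCM5 and MCM7, with log2 differences of 0.50 ± 0.11, 0.55 ± 0.10 and 0.43 ± 0.08. MCM3 did not pass without 48 h replicate 2 (0.41, adjusted p = 0.0151), nor MCM7 without Pre replicate 2 (0.34, adjusted p = 0.0109). TOP2A, a topoisomerase of dividing cells, was at 266 and 198 TPM in Pre and 182 and 296 at 48 h. Of 16 genes of ERK feedback and FGF signalling, 2 rose and 5 fell at 48 h. In that list 1 fell without 48 h replicate 1, 3 without Pre replicate 1 and 2 without Pre replicate 2, and 1 rose without the second replicate of 48 h or of Pre. ETV5, an ETS factor downstream of FGF, fell from 51.7 and 44.7 TPM in Pre to 10.5 and 18.6 at 12 h and 3.97 and 3.41 at 48 h (-3.39 ± 0.27). Of 11 LIF and STAT3 genes, 1 rose and 1 fell at 48 h. The rise, of the kinase gene PIM3, did not pass when any 1 of the 4 libraries was left out (adjusted p from 0.0218 to 0.0646), and 4 and 3 genes fell without 48 h replicate 2 and Pre replicate 1. PIM2, another kinase, was the one that fell with all libraries, from 90.1 and 96.8 to 29.6 and 42.4 TPM. Of 10 immediate early genes, 2 rose and none fell at 48 h, and 1 rose and 1 fell without Pre replicate 1.

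For stress and metabolism at 48 h, 4 of 15 hypoxia and glycolysis genes fell and none rose, and 1 of 11 genes of amino acid and ER stress rose and 4 fell, the rise lost without 48 h replicate 2 or either Pre library. Of 10 cholesterol synthesis genes 2 fell and none rose, with none fallen without 48 h replicate 1 and 1 without Pre replicate 2. VEGFA, an angiogenic ligand, was at 11.9 and 12.8 TPM in Pre and 2.26 and 3.98 at 48 h (-1.73 ± 0.27). DDIT4, an inhibitor of mTOR, was at 40.2 and 61.2 TPM in Pre and 17.9 and 17.1 at 48 h (-1.45 ± 0.23). Both genes were lower in the 48 h libraries than in either Pre library. Of 9 genes of p53 and growth arrest, 1 rose and 3 fell, none risen without Pre replicate 1. PHLDA3, an inhibitor of AKT, fell from 90.3 and 135 to 15.4 and 17.4 TPM, and CDKN2B, a cyclin-dependent kinase inhibitor, from 14.2 and 20.9 to 0.55 and 1.52 TPM. Of 6 DNA methylation genes, 1 rose and 2 fell, none fallen without 48 h replicate 1 or either Pre library; DNMT1, the maintenance methyltransferase, rose from 28.2 and 21.6 to 53.4 and 86.7 TPM (1.43 ± 0.17).

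Of 13 retinoic acid genes, 1 rose and 2 fell at 48 h, none fallen without 48 h replicate 1 or Pre replicate 2. The cellular retinoic acid-binding proteins went apart, CRABP2 up from 141 and 179 to 896 and 844 TPM (2.44 ± 0.36) and CRABP1 from 97.7 and 406 TPM in Pre to 28.2 and 29.1 at 12 h and 75.7 and 93.3 at 48 h. The Pre libraries differed from each other in CRABP1, and its 48 h fall of 1.24 did not pass without Pre replicate 2 (-0.21, adjusted p = 0.723) or either 48 h library (adjusted p = 0.067 and 0.0189). Markers of other cell types moved in both directions, in lists of 4 to 10 genes. Beside them, 9.98% of all genes rose and 9.27% fell at 48 h, and whether any of these lists exceeded that share was not tested. Of 10 neural genes, 3 rose at 48 h, POU3F2, DLL1 and SOX3, and 2 fell, ZIC1 and HESX1. The rise of SOX3 did not pass when any 1 of the 4 libraries was left out (adjusted p from 0.0182 to 0.0678), and 1 neural gene fell without 48 h replicate 1 or Pre replicate 2. Of 9 endoderm genes 2 rose and 1 fell, the risen ones being GATA6 and SOX17, and FOXA1, AFP and TTR were at or below 0.2 TPM in all 8 libraries. Of 4 trophoblast genes 1 rose and 1 fell, and of 6 endothelial and blood genes 1 rose and 2 fell. KDR, a receptor of endothelium and early mesoderm, rose from 14.6 and 20.8 to 51.8 and 101 TPM, whereas CDH5, the cadherin of endothelium, fell from 21.7 and 13.8 to 2.29 and 4.51 TPM. The rise of KDR did not pass without 48 h replicate 2 (1.52, adjusted p = 0.0106). Without 48 h replicate 1, 1 endoderm gene rose and none fell, and without Pre replicate 2, 1 rose and 2 fell. No trophoblast gene passed in either direction without 48 h replicate 1 or Pre replicate 1. Of the endothelial and blood genes, 1 fell without 48 h replicate 1 or Pre replicate 2.

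The change over 48 h was then set against that in BLSE alone, from cjESCs in DK20FA medium to aggregates at 48 h collected with no marker gate, 2 libraries each. That course used the line TG+, which carries rtTA, tetO-BLIMP1, SOX17-GR and DD-TFAP2C, had no pre-treatment and no IWR1; line, medium, pre-treatment and IWR1 cannot be told apart. The difference between the courses passed as a DEG in 129 genes with the higher value in BLSE+IWR1 (1.15%) and in 223 with the lower (1.99%), and by adjusted p alone in 6% and 6.22%. Core pluripotency genes differed, with 5 of 10 genes higher and 1 lower in BLSE+IWR1, none lower in 4 of the 8 fits that left out 1 library. NANOG fell to 242 and 286 TPM with IWR1, and from 743 and 514 to 31.5 and 22.6 TPM in BLSE alone (difference of the log2 changes 2.99 ± 0.24, adjusted p = 1.66e-11). SOX2 stood at 41.4 and 68.4 TPM with IWR1 and at 2.44 and 4.08 TPM in BLSE alone, from 191 and 200.4 (3.58 ± 0.40, adjusted p = 1.61e-08). POU5F1 went from 3082 and 2868 to 1608 and 1376 TPM in BLSE alone (1.47 ± 0.14). PRDM14 did not pass (0.96 ± 0.34, adjusted p = 0.0399), with 2.15 and 2.04 TPM at 48 h of BLSE.

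Primitive streak genes differed in the same direction, 6 of 13 higher with IWR1 and none lower, and so did 5 of 9 of the NODAL axis, with 1 lower. When any 1 of the 8 libraries was left out, fewer genes of either list were higher with IWR1. TBXT, at 149 and 219.9 TPM after 48 h with IWR1, went from 435 and 404 to 48.0 and 42.4 TPM in BLSE alone, and MIXL1 from 353 and 326 to 36.0 and 40.0 TPM. Both genes were more abundant at the start of the BLSE course than in Pre, and less abundant at 48 h of BLSE than at 48 h with IWR1. APLNR went the other way at 48 h, at 262 and 256 TPM in BLSE alone and 26.7 and 18.6 with IWR1, and the summed level of the streak list overlapped there (569 and 543 TPM against 436 and 571). Epithelial genes were higher in 6 of 9, in 3 without Pre replicate 2 or DK20FA replicate 1. BMP targets were higher in 4 of 14 and lower in 1, none without Pre replicate 2 or BLSE 48 h replicate 2: MSX2 rose by 4.55 with IWR1 and 2.71 in BLSE alone, and DLX5 by 5.45 and 5.28 on the log2 scale. Amnion genes were higher in 2 and lower in 3 of 13: GATA2 rose by 1.60 with IWR1 and 3.96 in BLSE alone (difference -2.36 ± 0.47), and the rise with IWR1 did not pass without Pre replicate 2 (1.09, adjusted p = 0.0426). Fibroblast genes were lower in 10 of 11. Their sum at the start was 246 and 306 TPM in the BLSE course against 3160.2 and 6530.2 in Pre, and at 48 h 349.8 and 394 TPM in BLSE alone.

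**Figure D5:**
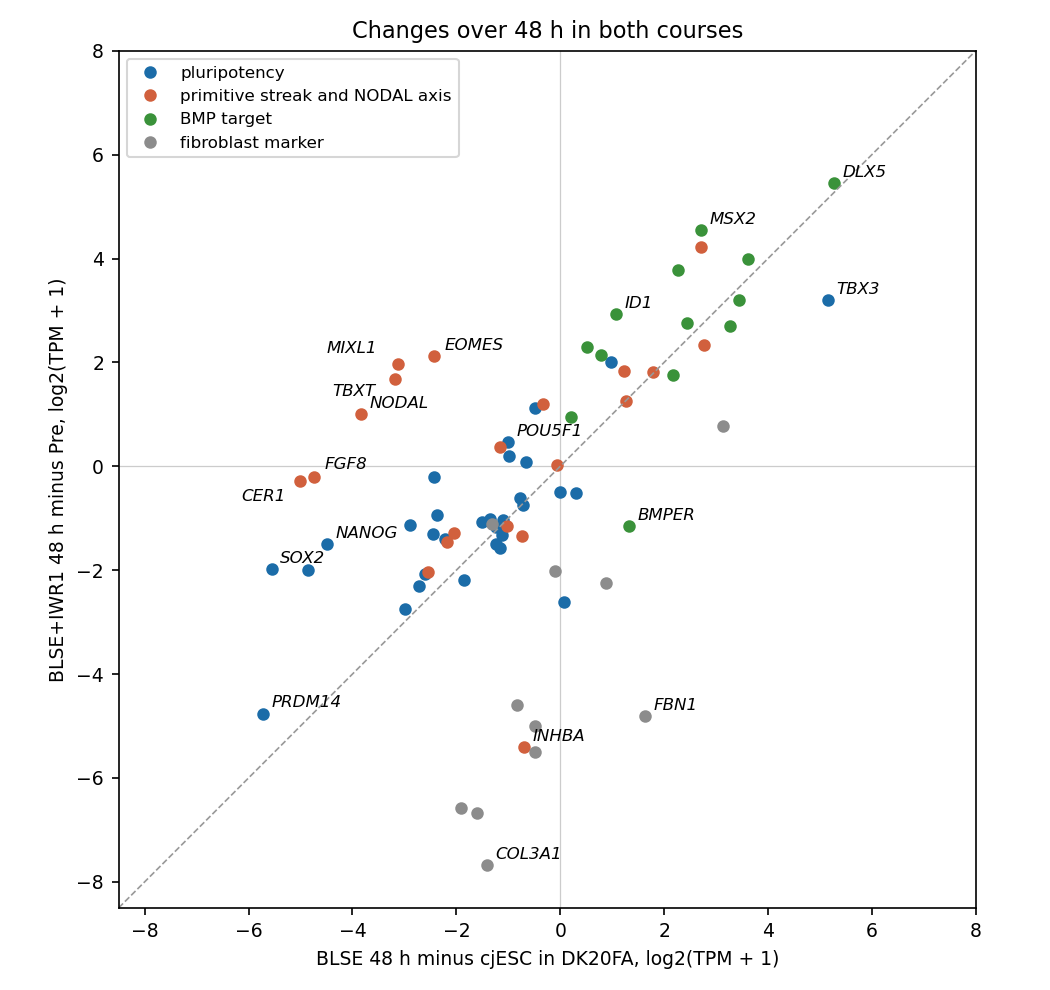
Log2 changes over 48 h of list genes in BLSE alone (horizontal) and in BLSE+IWR1 (vertical), on log2(TPM + 1), with the line of equal change dashed. Points above the line, such as TBXT, MIXL1, NODAL and SOX2, had the higher change in BLSE+IWR1, DLX5 lies near the line, and COL3A1 and FBN1 lie far below it.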

How the data were processed

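RNA from a fixed number of cells per sample, collected by FACS (behind a TRA-1-60 gate in Pre, with no marker gate in the induced libraries) as biological duplicates, was made into poly(A) libraries and sequenced single-end. The authors aligned reads to the marmoset assembly Callithrix_jacchus_cj1700_1.1 with STAR, dropped the most ambiguous alignments, quantified with RSEM and deposited TPM for genes shared with human. Reads of near-identical gene copies can be split. TPM keeps no depth, so sequencing depth is unknown and no counting interval is given.

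Genes with log2(TPM + 1) of at least 1.5 in at least 1 of the 54 libraries (11197 genes) were fitted with limma 3.58.1 (R 4.3.3) on log2(TPM + 1), with a mean for each of 27 conditions, 27 residual degrees of freedom and a trend in the prior variance. This replaces the count test that the study names, since the table holds no counts. The pseudocount of 1 makes differences of low genes smaller than their true fold. Tests were two-sided, with Benjamini-Hochberg adjustment over all genes. DEGs had more than 4-fold difference, adjusted p under 0.01 and mean log2 value above 1.5. The fit was tested on simulated data.

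Named genes were the 4 markers, members of the gene lists, genes the study names, and the 10 largest changes each way at each time (5 for steps and for the course difference) without locus-number symbols, with genes whose direction turned. The members and lists were chosen with earlier results of these data known. Alternatives were the pseudocount, the filter, scaling, the libraries fitted, a replicate block and leaving out each replicate. For single genes they covered the named genes called against Pre. For the steps and the course difference they covered only the largest changes and the 4 markers. The comparison of 48 h with 12 h was not put through them. Genome coordinates and sequences were not used here, and some genes that the rule names are not reported here.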

Additional observations from a re-analysis of the deposited data

Results flagged for a closer look

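The change over 48 h differed between BLSE+IWR1 and BLSE alone, tested as the difference of the 2 log2 changes in limma, in 352 genes. All 4 marker genes differed. HAND1 had a higher change with IWR1 by 2.42 ± 0.45 (adjusted p = 1.15e-04), POU3F2 by 1.65 ± 0.33 (adjusted p = 2.98e-04) and ID1 by 1.86 ± 0.26 (adjusted p = 1.08e-06), and VIM had a lower one (-2.55 ± 0.27, adjusted p = 3.61e-09). VIM went from 375 and 729 TPM to 1492 and 1633 TPM in BLSE alone, against a fall with IWR1. HAND1 went from 259 and 426 to 1769.6 and 1729 TPM in BLSE alone. At 48 h it was thus more abundant in BLSE alone than with IWR1 (1176 and 1186 TPM). Its start in BLSE alone was also above that in Pre, so the higher change with IWR1 is not a higher level.

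The 5 largest differences towards BLSE+IWR1 were in the WNT ligand WNT8A (7.35), the WNT receptor FZD10 (5.24), and MIXL1 (5.10), TBXT (4.87) and NODAL (4.84) on the log2 scale. WNT8A went from 36.2 and 38.5 to 28.3 and 26.9 TPM in BLSE alone. NODAL went from 390.4 and 438 to 26.8 and 29.3 TPM. The 5 largest in the other direction were FBN1 (-6.46), CCDC80 (-6.45), COL3A1 (-6.26), OLFML2B (-6.24) and HOXA5 (-5.92), of which FBN1, CCDC80, COL3A1 and OLFML2B encode secreted matrix or extracellular proteins and HOXA5 a homeobox factor. CCDC80 was at 33.8 and 57.7 TPM in Pre and 5.26 and 4.24 TPM at 48 h with IWR1, and went from 7.51 and 4.70 to 59.0 and 97.5 TPM in BLSE alone. A negative difference can hold a rise in BLSE alone as well as a fall with IWR1, as in CCDC80. The fibroblast marker sum of the starting cells differed between the courses as given above, and its part in these differences was not tested. No group had enough libraries (4 or more) to look for a library far from the others.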

How the results depend on the processing

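DEG counts depended on the libraries fitted. With only the libraries compared, DEG counts were 0 at 12 h, 24 h and 48 h, 0 from 12 h to 24 h and 0 from 24 h to 48 h (limma, with 841 and 1075 genes at an unadjusted p under 0.05 for these steps), 121 for the course difference and 251 for any change in the course. With the 8 libraries of the course, chosen after the data had been seen, they were 46 at 12 h, 102 at 24 h, 0 from 12 h to 24 h (554 at an unadjusted p under 0.05) and 1 from 24 h to 48 h. With 12 h as the base, also added later, 48 h gave 60 DEGs in place of 278. Pseudocount, filter, scaling, prior variance and a fit of ungated and TRA-1-60-gated libraries kept every such total within 1.5 times, although from 24 h to 48 h the pseudocount of 0.1 gave 11 higher in place of 18 and the last of these fits 3 lower in place of 5. Without Pre replicate 2, 57 were lower at 12 h in place of 117 and 89 at 24 h in place of 134. Leaving out 1 library gave 74 to 184 DEGs at 12 h, 130 to 217 at 24 h, 245 to 337 at 48 h, 0 to 1 and 18 to 24 for the steps, 277 to 400 for the course difference and 1184 to 1951 for any change. Of 5801 values of 443 called gene differences under all alternatives, 4556 kept their side of the threshold, 1245 lost it and 0 changed sign.

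With the replicate number as a block, counts were 134, 175, 278, 1 and 23, with 352 for the course difference and 2005 for any change, and the call of PIM3 at 48 h was lost. Deviations of same-numbered libraries did not pair the samples: their correlation was 0.07 between Pre and 12 h, -0.03 with 24 h and -0.05 with 48 h, and from -0.25 to 0.21 among induced times. Depth is unknown, so what it limits could not be set.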
